A study of Bos taurus with 16 samples.

Results

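The enzymes that write and erase protein methylation were followed in blastocysts of lactating Holstein cows fed 1 of 2 levels of methionine. The set held the histone lysine methyltransferases, the protein arginine methyltransferases, the histone demethylases and the PRC2 subunits EED and SUZ12. Loci were chosen by gene symbol alone (the SETD, SETDB, SUV39H, SUV420H, EHMT, EZH, KMT, MLL, NSD, SMYD, PRMT and KDM families with WHSC1, WHSC1L1, ASH1L, DOT1L, CARM1, EED and SUZ12), each locus once. This gave 56 loci of the 22358 in the count tables. They carried 55 symbols, because KDM4D was listed at 2 loci. No locus carried the symbol DOT1L, SUV39H1 or SUV420H1 or a symbol of the KMT family, so nothing is reported under these names. Of the 56 loci, 39 encode proteins of families that use S-adenosylmethionine as methyl donor, 15 encode demethylases, and EED and SUZ12 encode PRC2 subunits with no catalytic activity of their own.

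The control diet was formulated to 1.9% methionine of metabolizable protein and the methionine-rich diet, with rumen-protected methionine added to the same base, to 2.4%. The cows received it from calving on, were superovulated and inseminated, and were flushed on Day 7. Each treatment had 4 cows and each cow gave 2 pools of expanded blastocysts, 16 pools in all. Pools are named by treatment (C or M), cow (1 to 4 control, 5 to 8 methionine-rich) and pool, so that M8.2 is the second pool of cow 8. A pool held 1 or 2 blastocysts in the control treatment (14 in 8 pools) and 1 to 4 in the methionine-rich treatment (21 in 8 pools). C4.1, C4.2 and M8.2 were the pools of 1 blastocyst. The study listed the lowest concentrations of amplified RNA for M8.1 and M8.2. The labels name the tissue as IVF embryos, while the methods describe embryos flushed from inseminated cows. The 2 pools of a cow share a mother, so the cow is the independent unit.

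Methionine is the source of S-adenosylmethionine, the methyl donor of nearly every methyltransferase of the cell. SET-domain enzymes place the methyl group on histone lysines and PRMT enzymes place it on arginines. Methylation of H3K4 and H3K36 is known from active genes, and that of H3K9 and H3K27 from silenced ones. Demethylases remove the marks, the KDM1 enzymes with a flavin cofactor and the JmjC enzymes with iron and alpha-ketoglutarate. In the mammalian embryo before implantation these enzymes take part in the remodelling of parental chromatin and in the separation of trophectoderm and inner cell mass.

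Reads assigned to loci numbered 5624126 to 7826542 per pool in 15 pools. They numbered 1745048 in C3.2, which the study left out because few of its uniquely mapped reads lay in exons, and which is described apart from the other 15 here. Levels are CPM, counts scaled to the same total of assigned reads in every pool. They are not corrected for transcript length, so levels of different genes are not compared, and 3 counts correspond to 0.383 to 0.533 CPM in the 15 pools. The 10 trophectoderm markers summed to between 3072 and 9681 CPM, and the 6 inner cell mass markers to between 209 and 1817 CPM, so each of the 15 pools held transcripts of both lineages, although CDX2, a defining trophectoderm factor, was at 0 in some. The 12 leukocyte markers summed to 2962 CPM in C2.1 and to at most 36.6 CPM in the other 14 pools, with CD3E at 0 in all 15. LAPTM5, TYROBP, LCP1, NKG7 and VIM were listed with their high level in C2.1 already known, so the sum does not test for such cells. Of the others, CORO1A, CD52, CD53 and CD68 were also highest in C2.1. Of the 15 pools, PTPRC was highest in M8.1 (48 counts) and LCP2 in M8.2 (45 counts). In C3.2 they had 278 and 356 counts, and the 12 leukocyte markers summed to 371 CPM there. The cumulus list summed to between 2.64 and 69.0 CPM and the uterine list to between 0 and 24.9 CPM. The fit was repeated without C2.1, and apart from that the part of these cells in the results was not tested. In pooled embryos fewer cells of a type and less RNA per cell cannot be told apart.

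None of the tested methyltransferase, demethylase and PRC2 loci was called differentially expressed. So few of all tested loci were called that this does not set the enzymes apart. Of the 56 loci, 41 reached a summed CPM of 15 over the 15 pools and were tested (26 of the S-adenosylmethionine-using families, 13 demethylases, EED and SUZ12). By edgeR's exact test 0 of the 41 passed an FDR of 0.1, against 110 of all 10519 loci tested, which is 1.05%. By the quasi-likelihood test of edgeR 0 of the 41 passed, and so did 0.0% of all loci tested. PRMT10 alone had an unadjusted p under 0.05 by the exact test, and it was higher in the methionine-rich pools. In that direction 3.21% of all tested loci had such a p, and in the other 5.32%. In either direction, 1 of the 41, SETD5, had an unadjusted p under 0.05 by the quasi-likelihood test (8.64% of all tested loci did), 3 by DESeq2 (7.42% of all) and 0 by limma voom (4.0% of all), in which the cow was a random effect.

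At the level of cows, none of the 41 loci had cow means that separated the 4 control from the 4 methionine-rich cows. Among all tested loci 1.05% separated with control higher and 1.16% with methionine-rich higher. The median log2 fold change (methionine-rich over control) was -0.04 over the 41 loci and -0.05 over all tested loci. Of the 41 loci, 21 had a fold change below 0 and 20 above, and 36 (87.8%) lay within 2-fold, as did 75.3% of all tested loci. When every pool had to hold 10 counts or more, 26 of the enzyme loci remained, and all 26 lay within 2-fold, as did 96.3% of the 4970 loci of that kind.

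A p that misses the threshold does not show equal levels, and the intervals were wide. The 95% interval of the log2 fold change by DESeq2 spanned between 1.17 and 6.48, with a median of 2.00. In 9 of the 41 loci the whole interval lay within 2-fold either way. In 3 loci, EHMT1, SETD5 and PRMT10, it lay above 0 before any adjustment for multiple testing, and these are the 3 loci with an unadjusted p under 0.05 by DESeq2, a share near the 7.42% of all tested loci.

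**Figure D1:**
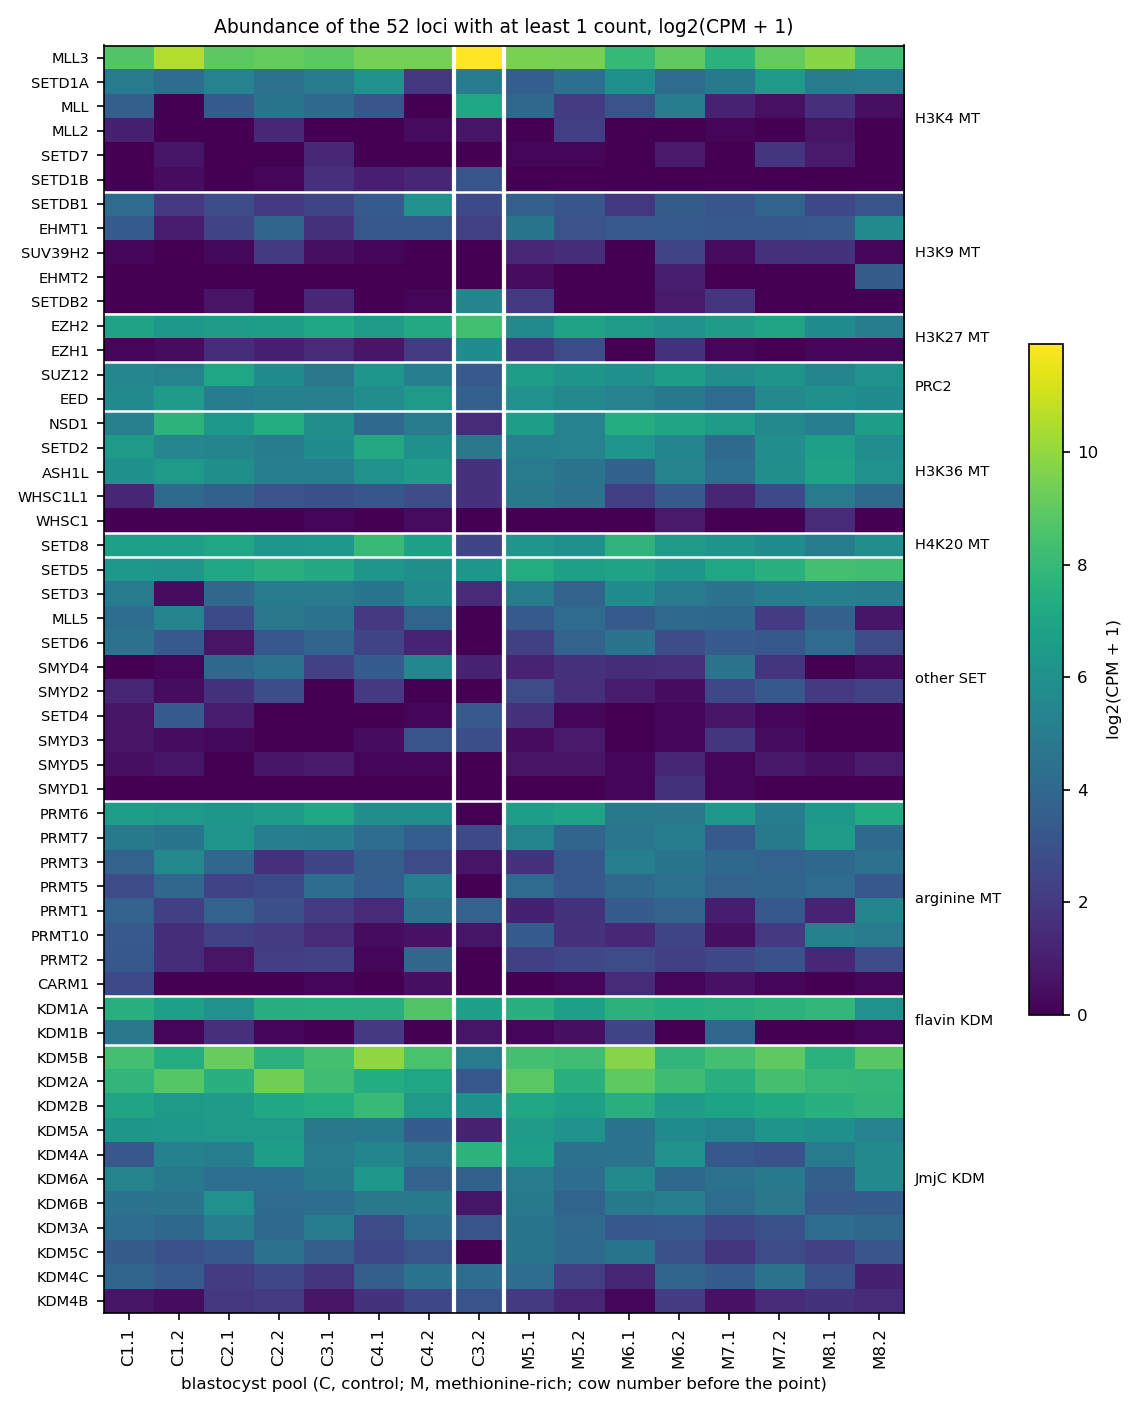
Abundance as log2(CPM + 1), shown by colour, of the 52 loci that had any count in the 16 pools (columns, with C3.2 between white lines) in the order of their role (rows; MT, methyltransferase; KDM, demethylase). Of the 41 tested loci, 36 differed less than 2-fold between treatments, and the column of C3.2 departs from its neighbours in many rows.

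**Figure D2:**
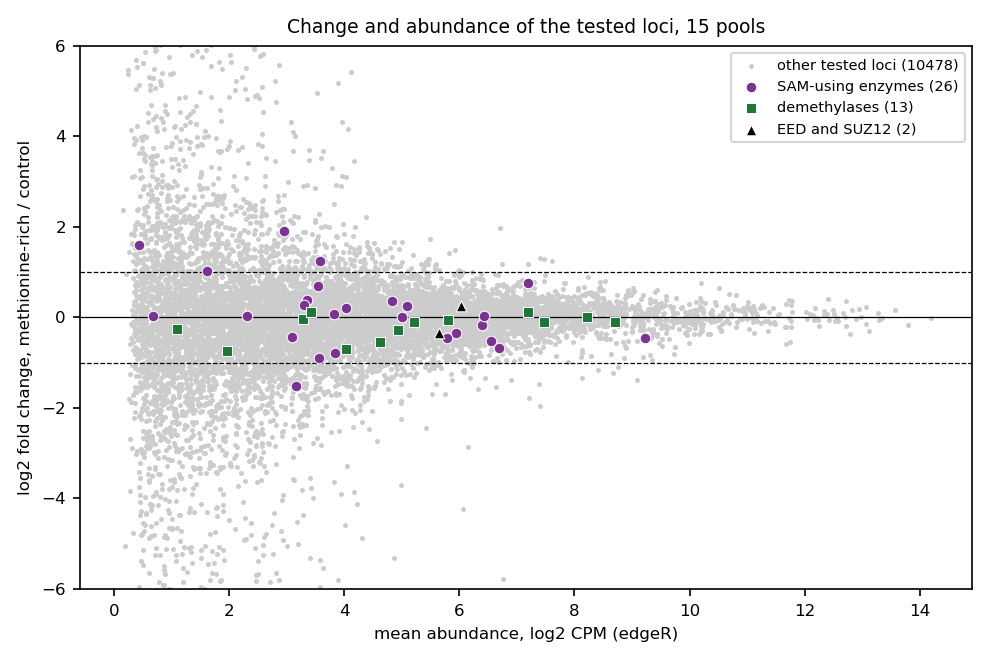
Log2 fold change between treatments (y axis) against mean abundance in log2 CPM (x axis) by edgeR, over 15 pools, with the 41 tested enzyme loci over the other 10478 tested loci in grey. Dashed lines mark 2-fold, between which 36 of the 41 loci lie, and 246 loci beyond 6 on the y axis are not drawn.

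**Figure D3:**
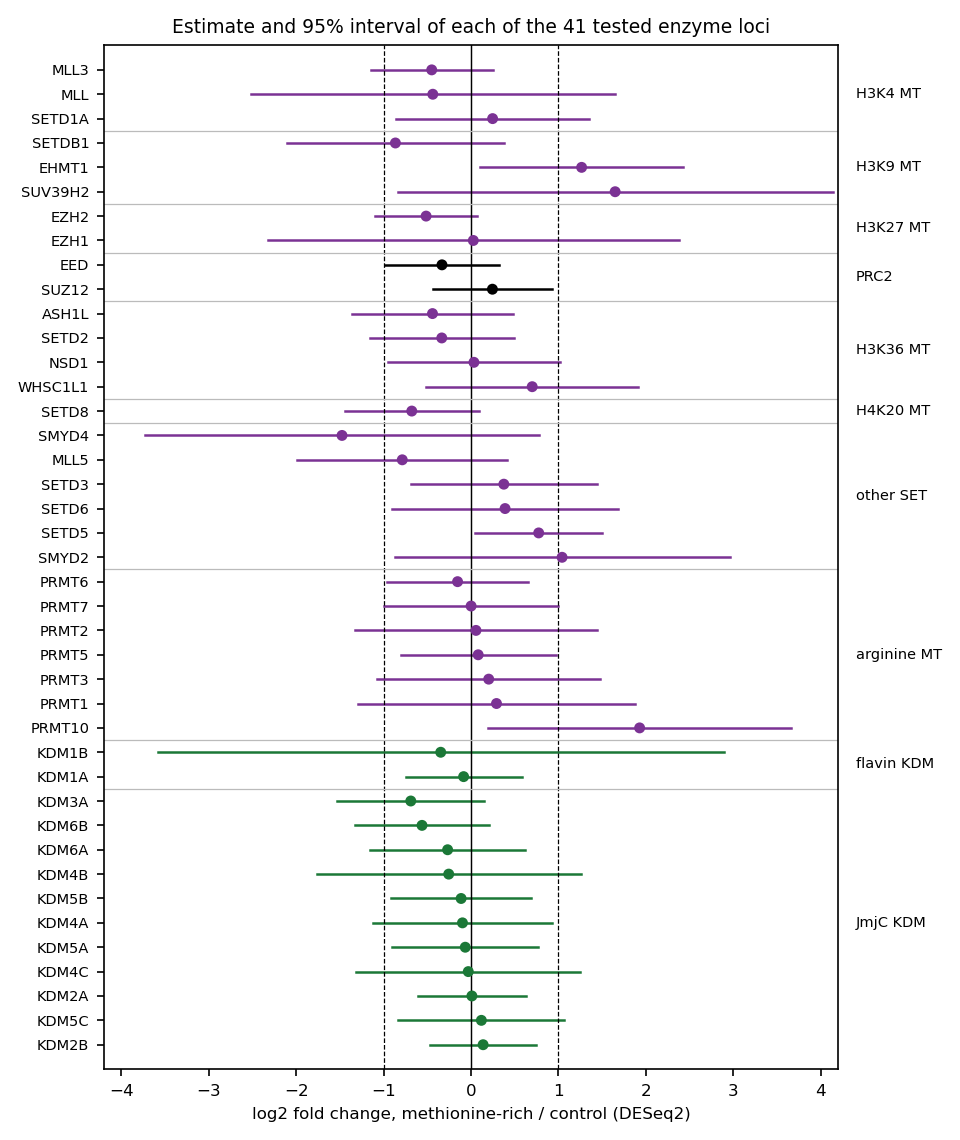
Log2 fold change and its 95% interval by DESeq2 for each of the 41 tested loci, grouped by role, with purple for enzymes of the S-adenosylmethionine-using families, green for demethylases and black for EED and SUZ12. Dashed lines mark 2-fold, and only the intervals of EHMT1, SETD5 and PRMT10 do not include 0.

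Of the 6 H3K4 methyltransferase loci, 3 were tested. MLL3, which methylates H3K4 at enhancers, ran from 429 to 1489 CPM over the 7 control pools (median 562). Over the 8 methionine-rich pools it ran from 196 to 902 CPM (median 531). The ranges overlapped widely, and C1.2 alone, at 1489 CPM, stood above the rest of the control pools. Its log2 fold change was -0.45 (95% interval -1.15 to 0.25, FDR = 0.907 by the exact test), and without cow 1 it was -0.15. SETD1A, the catalytic subunit of a COMPASS complex, ran from 2.83 to 69.7 CPM (median 27.9) in control and from 10.7 to 85.8 CPM (median 28.3) in methionine-rich pools. The lowest pool was C4.2 and the highest M7.2, and its log2 fold change was 0.25 (95% interval -0.85 to 1.35). MLL, the founding member of the family, was at 0 in 2 control pools and reached 32.1 CPM in M6.2.

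The other H3K4 enzymes were close to the limit of detection. MLL2, a symbol used for KMT2B as well as for KMT2D, had at most 28 counts in a pool and SETD7, a monomethyltransferase, at most 16. SETD1B, the paralog of SETD1A, was singled out after its values were seen. It had 0, 2, 0, 1, 16, 6 and 11 counts in C1.1, C1.2, C2.1, C2.2, C3.1, C4.1 and C4.2, and 0 counts in each of the 8 methionine-rich pools. Pooled over each treatment, its 36 control counts lay at least 14.4-fold above the 3 counts that a methionine-rich total of 0 allows. This bound covers counting error only and not the spread between pools or cows. Most of the 36 counts came from C3.1, C4.1 and C4.2. Each control cow had at least 1 count, cow 2 only 1, and no methionine-rich cow had any, the pattern for which the locus was picked. Of the 17409 loci that had any count, 0.775% separated that way, and without a filter the FDR of SETD1B was 0.325 by the exact test.

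Of the 5 H3K9 methyltransferase loci, SETDB1, EHMT1 and SUV39H2 were tested. EHMT1, also known as GLP, forms a heterodimer with EHMT2 that dimethylates H3K9. It ran from 0.900 to 13.9 CPM in control pools (median 8.57) and from 7.26 to 51.4 CPM in methionine-rich pools (median 9.09). The lowest values were those of the control pools C1.2, C3.1 and C2.1, while M8.2 and M5.1 stood above all other pools. EHMT1 had a log2 fold change of 1.24 (95% interval by DESeq2 0.11 to 2.42, FDR = 0.648 by the exact test), and the two-sided exact permutation test over cows gave p = 0.0571, where 0.0286 is the smallest that 4 against 4 cows can give. With CPM normalized by TMM its cow means did not overlap, as was the case in the same direction in 1.2% of all tested loci. Without cow 8 the log2 fold change was 0.62, and with the number of blastocysts as a covariate it was 1.72. Here and below, the fit with that covariate is the quasi-likelihood fit. Control pools held 1 to 2 blastocysts and methionine-rich pools 1 to 4, so this fit cannot fully separate number from treatment.

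EHMT2, the partner of EHMT1, did not reach the level for testing. It had 0 counts in all 7 control pools and 2, 0, 0, 6, 0, 0, 0 and 78 in M5.1 to M8.2. Of its 86 counts 78 came from M8.2, a pool of 1 blastocyst and the same pool in which EHMT1 was highest. Pooled over the treatment, its methionine-rich level lay at least 23.9-fold above the 3 counts that a control total of 0 allows. This bound rests on M8.2 and covers counting error only.

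SETDB1, which methylates H3K9 at retroelements with TRIM28, ran from 2.94 to 67.0 CPM in control (median 5.87) and from 2.86 to 13.5 CPM in methionine-rich pools (median 8.05). C4.2 alone held 40.4% of its counts. SETDB1 had a log2 fold change of -0.89 with all 15 pools, of 0.27 without cow 4 and of -0.22 with the number of blastocysts as a covariate. SUV39H2, a methyltransferase of constitutive heterochromatin, was present at a median of 0.165 CPM in control and 1.75 CPM in methionine-rich pools. C2.2 (3.10 CPM) was the only control pool above 0.404 CPM, whereas 5 of the 8 methionine-rich pools were at 1.52 CPM or more, with the highest at 4.38 CPM. For SUV39H2 the log2 fold change was 1.60 (95% interval -0.84 to 4.14, FDR = 0.909 by the exact test), and 0.43 with the number of blastocysts as a covariate. SETDB2 had at most 22 counts in any of the 15 pools, against 74 in C3.2, and was not tested.

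PRC2 places methyl groups on H3K27. Its catalytic subunit EZH2 ran from 82.5 to 148 CPM in control pools (median 103) and from 32.7 to 125 CPM in methionine-rich pools (median 73.3). The lowest control pool, C1.2, lay above 4 of the 8 methionine-rich pools, and M5.2 and M7.2 lay within the upper part of the control range. EZH2 had a log2 fold change of -0.52 (95% interval -1.10 to 0.07, FDR = 0.816 by the exact test) and stayed between -0.78 and -0.33 with any 1 cow left out. With the number of blastocysts as a covariate it was -0.66. Across the 15 pools EZH2 had a coefficient of variation of 0.360, against a median of 0.673 for the 41 loci. Its paralog EZH1 was at most 5.94 CPM (M5.2) and had medians of 1.08 CPM in control and 0.137 CPM in methionine-rich pools. The means of EZH1 were 1.30 ± 1.09 CPM (SD, n = 7 pools) and 1.41 ± 2.13 CPM (SD, n = 8 pools), with a log2 fold change of 0.03 (95% interval -2.32 to 2.38) that was -1.53 with the blastocyst covariate.

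The non-catalytic subunits SUZ12 and EED had coefficients of variation of 0.434 and 0.410. SUZ12, which is needed for the stability of the complex, ran from 25.3 to 130 CPM in control (median 44.5) and from 44.0 to 103 CPM in methionine-rich pools (median 69.2). Its highest pool was C2.1, the pool with the highest leukocyte marker sum. Without C2.1 the cow means of the treatments did not overlap, with methionine-rich higher, as in 1.24% of all loci tested without C2.1. The log2 fold change of SUZ12 was then 0.66. With all 15 pools its log2 fold change was 0.26 (95% interval by DESeq2 -0.44 to 0.93). EED, which binds methylated H3K27, ran from 31.3 to 91.5 CPM in control (median 51.2) and from 17.1 to 65.3 CPM in methionine-rich pools (median 48.4), with a log2 fold change of -0.34. The ranges of each subunit overlapped between treatments.

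Among the 5 H3K36 methyltransferase loci 4 were tested. NSD1, which dimethylates H3K36, ran from 15.8 to 209 CPM in control pools (median 58.7) and from 34.2 to 164 CPM in methionine-rich pools (median 95.6). The highest and the lowest pool were both control, C1.2 and C4.1. NSD1 had a log2 fold change of 0.03 (95% interval -0.95 to 1.02). SETD2, which trimethylates H3K36 in transcribed gene bodies, ran from 31.9 to 145 CPM (median 54.0) and from 16.7 to 107 CPM (median 49.7), with a log2 fold change of -0.35. For ASH1L, counted here with the H3K36 enzymes, the range over the 15 pools was 12.1 to 117 CPM, and for WHSC1L1, also called NSD3, it was 1.41 to 29.2 CPM. WHSC1, also called NSD2, had at most 13 counts in a pool.

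SETD8 is the H4K20 monomethyltransferase. It ran from 76.9 to 259 CPM in control pools (median 110) and from 31.0 to 213 CPM in methionine-rich pools (median 66.5). In each treatment 1 pool stood well above the rest, C4.1 and M6.1, and 6 of the 8 methionine-rich pools lay below the lowest control pool. SETD8 had a log2 fold change of -0.68 (95% interval -1.44 to 0.09, FDR = 0.730 by the exact test), which was -0.37 without cow 4 and -1.12 without cow 6. SUV420H2, which adds further methyl groups to H4K20, had 0 counts in all 15 pools.

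The other SET-domain group held 10 loci, of which 6 were tested. Several of these proteins have substrates other than histones, and for SETD5 and MLL5 catalytic activity is in doubt. SETD5 ran from 60.4 to 177 CPM in control pools (median 80.7) and from 75.9 to 325 CPM in methionine-rich pools (median 147). The 2 highest pools were M8.1 and M8.2 (325 and 304 CPM), both of cow 8, and 5 of the other 6 methionine-rich pools lay within the control range. SETD5 had a log2 fold change of 0.76 (95% interval by DESeq2 0.05 to 1.50, FDR = 0.587 by the exact test), and 0.25 without cow 8. With the number of blastocysts as a covariate it was 1.02. SETD3, the histidine methyltransferase of actin, ran from 0.300 to 49.1 CPM (median 28.4) and from 13.1 to 54.4 CPM (median 32.6), with C1.2 the lowest pool by far.

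SMYD4 had the lowest fold change of the 41 loci. It was at 0 in C1.1 and M8.1 and at 45.9 CPM in C4.2, with medians of 10.2 CPM in control and 2.05 CPM in methionine-rich pools. Except for M7.1 at 22.9 CPM, the methionine-rich pools had at most 2.58 CPM. Its log2 fold change was -1.51 (95% interval -3.73 to 0.78, FDR = 0.859 by the exact test), with -0.74 without cow 4, -3.38 without cow 7 and -0.35 with the number of blastocysts in the pool as a covariate. MLL5 (0.675 to 39.0 CPM), SETD6 (0.533 to 23.4 CPM) and SMYD2 (0 to 8.51 CPM) had fold changes of -0.80, 0.37 and 1.03 on the log2 scale. SETD4, SMYD3, SMYD5 and SMYD1 were not tested, with at most 65, 58, 8 and 14 counts in a pool.

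Of the 9 arginine methyltransferase loci 7 were tested. PRMT6, which methylates H3R2 and opposes H3K4 methylation, ran from 58.7 to 134 CPM in control pools (median 87.3) and from 25.4 to 159 CPM in methionine-rich pools (median 81.6). The methionine-rich pools were the more spread, with M6.1, M6.2 and M7.2 below every control pool and M8.2 above. Its log2 fold change was -0.17 (95% interval -0.96 to 0.65). PRMT7, an arginine monomethyltransferase, ran from 10.8 to 73.8 CPM (median 27) and from 9.46 to 92.6 CPM (median 25.7). In each treatment 1 pool, C2.1 and M8.1, stood above the rest, and the log2 fold change of 0.00 became 0.43 without C2.1 and -0.48 without cow 8. PRMT5, the main symmetric dimethyltransferase, ran from 4.45 to 35.1 CPM over the 15 pools, PRMT1, the main asymmetric one, from 0.894 to 43.2 CPM, PRMT3 from 2.01 to 47.5 CPM and PRMT2 from 0.165 to 14.4 CPM.

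PRMT10 had the smallest p of the 41 loci. It ran from 0.330 to 9.10 CPM in control pools (median 1.95) and from 0.383 to 36.3 CPM in methionine-rich pools (median 3.72). The pools of cow 8, M8.1 and M8.2, were at 36.3 and 29.3 CPM, and 5 of the other 6 methionine-rich pools lay within the control range. PRMT10 had a log2 fold change of 1.9 (95% interval by DESeq2 0.20 to 3.66, unadjusted p = 0.0420 and FDR = 0.539 by edgeR's exact test). The exact permutation test over cows gave p = 0.314, and without cow 8 the log2 fold change was 0.07. With the number of blastocysts as a covariate it was 2.06. CARM1, an asymmetric arginine methyltransferase known from early mouse embryos, had at most 39 counts in a pool (C1.1), and PRMT8, an enzyme of the brain, had 0 counts in all 15 pools.

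**Figure D4:**
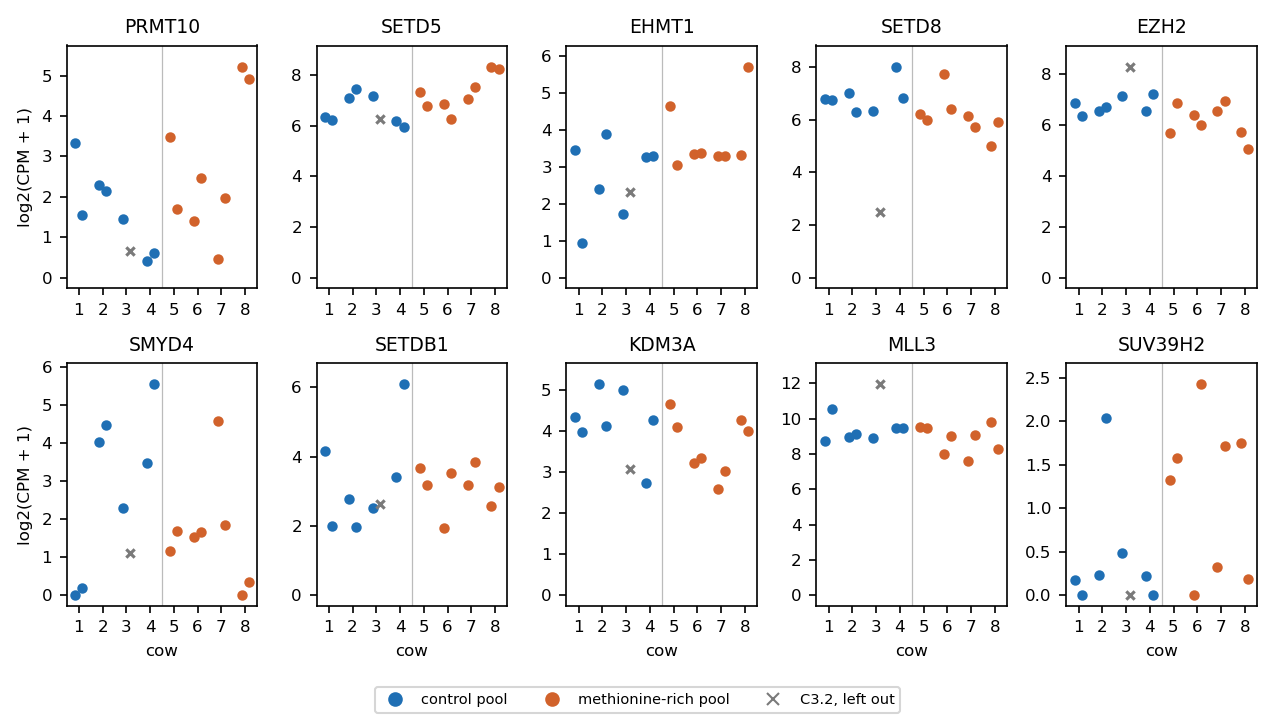
Abundance as log2(CPM + 1) in each pool (points, y axis) by cow (x axis, cows 1 to 4 control and 5 to 8 methionine-rich) of the 10 loci with the smallest p by the exact test, C3.2 as a cross. In SETD5 and PRMT10 the 2 points of cow 8 are the highest, and in every panel the treatments overlap.

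By point estimate all 13 tested demethylase loci lay within 2-fold between treatments, with a median log2 fold change of -0.11 (10 below 0 and 3 above). The interval of KDM1B by DESeq2 ran from -3.58 to 2.89. The 26 tested loci of the S-adenosylmethionine-using families had a median of 0.03 (10 below 0 and 16 above), with 21 within 2-fold. Over all tested loci 75.3% lay within 2-fold, with 5631 below 0 and 4888 above. Of the demethylases 10 held at least 10 counts in every pool, and of the S-adenosylmethionine-using families 14. Among all loci with such counts 96.3% lay within 2-fold. The difference between the classes was not tested.

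Of the flavin enzymes, KDM1A removes methyl groups from H3K4 together with CoREST. It ran from 64.9 to 408 CPM in control pools (median 182) and from 65.5 to 242 CPM in methionine-rich pools (median 185). C4.2 stood above all others, and the remaining pools of the treatments overlapped throughout. KDM1A had a log2 fold change of -0.11 (95% interval -0.75 to 0.58). KDM1B, the second flavin enzyme, which acts in the oocyte, was near 0 in most pools and at 26 CPM in C1.1 and 14.2 CPM in M7.1. C1.1 held 52.0% of its counts.

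The JmjC group held 13 loci, of which 11 were tested. KDM5B, an H3K4 demethylase, ran from 168 to 991 CPM in control pools (median 335) and from 195 to 861 CPM in methionine-rich pools (median 330). Its highest pools were C4.1 and M6.1, 1 in each treatment, and they were also the highest pools of SETD8. KDM5B had a log2 fold change of -0.11 (95% interval -0.91 to 0.69). KDM2A, an H3K36 demethylase of CpG islands, ran from 132 to 651 CPM (median 233) and from 178 to 502 CPM (median 272), and its log2 fold change of 0.00 had a 95% interval of -0.61 to 0.63. Its paralog KDM2B, which recruits Polycomb to CpG islands, was among the steadiest of the 41 loci, at 86.8 to 259 CPM with a coefficient of variation of 0.351 and a log2 fold change of 0.13 (95% interval -0.46 to 0.74).

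KDM3A, an H3K9 demethylase, was the demethylase with the smallest p. It ran from 5.60 to 34.0 CPM in control (median 18.1) and from 4.98 to 24.3 CPM in methionine-rich pools (median 12.0). C2.1 and C3.1 were the highest pools, and C4.1 the lowest of control. Its log2 fold change was -0.69 (95% interval -1.53 to 0.15, FDR = 0.888 by the exact test), and without C2.1 it was -0.45.

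The H3K27 demethylases KDM6A and KDM6B ran from 11.4 to 80.6 CPM and from 9.05 to 63.7 CPM over the 15 pools, with log2 fold changes of -0.27 and -0.55. KDM6A lies on the X chromosome in mammals and has a Y-linked relative, UTY, and KDM5C is X-linked as well. UTY, looked up for this reason, ran from 0 to 13 counts in control and from 0 to 63 counts in methionine-rich pools, with 0 counts in 6 of the 15, and the sex of the embryos was not tested. The H3K4 demethylases KDM5A (10.3 to 92.3 CPM) and KDM5C (2.56 to 24.1 CPM) and the H3K9 demethylases KDM4A (6.99 to 102 CPM), KDM4C (1.08 to 22.9 CPM) and KDM4B (0.136 to 4.89 CPM) had log2 fold changes between -0.27 and 0.12. Both KDM4D loci had 0 counts in all 15 pools. Reads shared by close paralogs, such as those of the KDM4 and MLL families, may be split or lost in the counting, and the strand setting was not given in the sources used here.

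Summed over their members, the methyltransferases and the demethylases differed between treatments by less than the spread between cows. The S-adenosylmethionine-using families summed to 1528 ± 219 CPM in control cows and 1362 ± 250 CPM in methionine-rich cows (mean ± SD of cow means, n = 4 each), a difference of -166 CPM against a pooled SD of 235. Demethylases summed to 1238 ± 180 and 1211 ± 163 CPM (n = 4 each), a difference of -27 CPM against a pooled SD of 172. The log2 ratio of the sums was 0.30 ± 0.28 in control cows and 0.18 ± 0.36 in methionine-rich cows. The ranges of cow means overlapped for each of these quantities.

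MLL3 had a large share of the methyltransferase sum. It made up between 34.4 and 62.7% of it in control pools and between 21.2 and 51.8% in methionine-rich pools. Without MLL3 the sums were 866 ± 18 and 839 ± 157 CPM and the log2 ratios -0.49 ± 0.16 and -0.51 ± 0.33 (n = 4 cows each). The control cows were then within 848 to 886 CPM, while the methionine-rich cows ran from 721 to 1064 CPM, with cow 8 the highest. In the pools, C1.2 had the highest methyltransferase sum (2374 CPM), and M6.1 (1909 CPM) and C4.1 (1808 CPM) had the highest demethylase sums. These are sums over loci of unlike length, without correction for it, and the part of length in them was not tested.

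**Figure D5:**
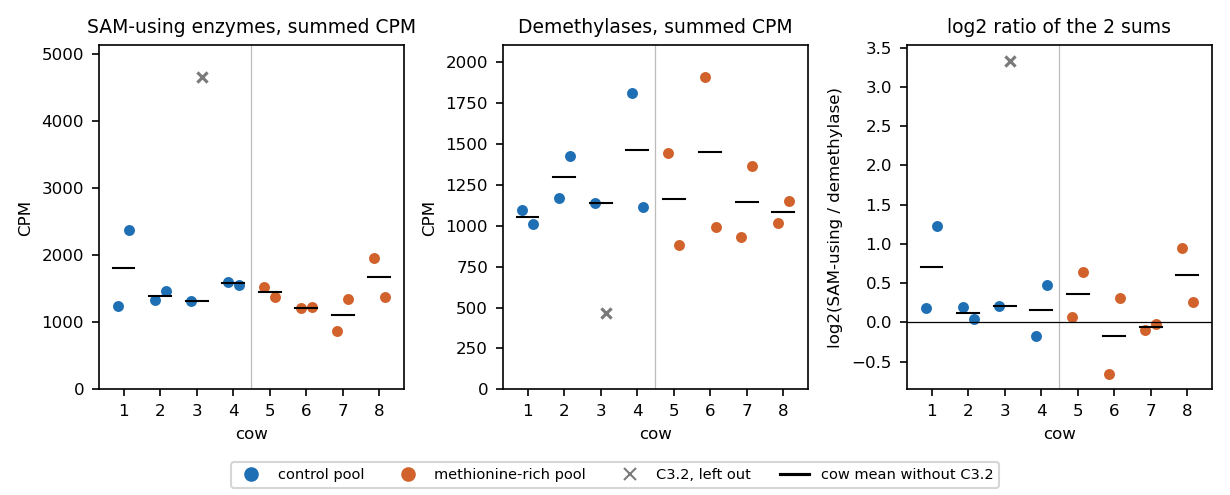
Summed CPM of the S-adenosylmethionine (SAM)-using families (left) and of the demethylases (middle) and the log2 ratio of the sums (right) in each pool (points) by cow (x axis), with black bars for cow means. The cow means of the treatments overlap in each panel, and C3.2, the grey cross, lies at 4663 and 465 CPM with a log2 ratio of 3.33.

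Pools of a cow differed nearly as much as pools of different cows. Over the 41 loci the median absolute log2 difference was 0.94 between the 2 pools of a cow (7 pairs), 1.04 between pools of different cows of a treatment (42 pairs) and 1.02 between treatments (56 pairs). Over all tested loci these medians were 1.03, 1.06 and 1.07. The single highest pool of a locus held a median of 16.7% of its counts in the 41 loci and 19.5% in all tested loci. C4.2 was the highest pool by CPM in 7 of the 41 loci and M7.1 the lowest in 8. Among cows, cow 4 had the highest mean in 12 loci and cow 8 in 7, while cow 7 had the lowest in 9. The pools C4.1, C4.2 and M8.2 held 1 blastocyst each, and the part of this in the spread was not tested.

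C3.2 departed from the other pools upward in some loci and downward in others, in the enzymes as in all tested loci. Of the 41 loci, 6 lay above the highest of the 15 pools (9.91% of all tested loci did), 18 below the lowest (35.2% of all) and 17 within the range. Its MLL3 level was 3914 CPM against at most 1489 CPM elsewhere, that of EZH2 316 against 148 CPM, and that of EZH1 53.3 against 5.94 CPM. MLL was at 138 against 32.1 CPM, KDM4A at 208 against 102 CPM and KDM4B at 7.45 against 4.89 CPM. In contrast, KDM2A was at 8.60 CPM against at least 132 CPM elsewhere, KDM5B at 30.4 against at least 168 CPM, SETD8 at 4.58 against at least 31.0 CPM, and PRMT6 had 0 counts, which at this depth allows up to 1.72 CPM, against at least 25.4 CPM. MLL3 made up 83.9% of the methyltransferase sum of C3.2. With C3.2 included the smallest FDR of any of the enzyme loci by the exact test was 0.152, that of MLL3, whose log2 fold change became -1.52.

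The partners of these enzymes and the genes of S-adenosylmethionine supply were read from the same fit. Of 45 genes listed (COMPASS, PRC2, CoREST, PRMT5 and H3K9 partners, demethylases under other symbols and the S-adenosylmethionine genes) 39 were found and 34 tested, and 0 passed an FDR of 0.1, by the exact or by the quasi-likelihood test, where 1.05% and 0.0% of all tested loci passed. Of the 34, 12 had a fold change below 0 and 22 above, with a median of 0.20 on the log2 scale (5631 below, 4888 above and a median of -0.05 over all tested loci), and 1 had an unadjusted p under 0.05 by the exact test. This was TRIM28, the corepressor that recruits SETDB1, at 0.330 to 2.01 CPM in control (median 1.24) and 0.767 to 32.8 CPM in methionine-rich pools (median 1.50). M8.2, the pool that was also highest in EHMT1, EHMT2 and PRMT1, held 52.9% of its counts, and its log2 fold change was 2.61 (FDR = 0.265 by the exact test).

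Among the partners, MAT2A, which makes S-adenosylmethionine from methionine, ran from 143 to 274 CPM in control (median 167) and from 65.2 to 265 CPM in methionine-rich pools (median 148), with a log2 fold change of -0.49 (FDR = 0.816 by the exact test). AHCYL1, a relative of the S-adenosylhomocysteine hydrolase, ran from 11.4 to 87.0 CPM (median 41.6) and from 33.0 to 113 CPM (median 59.6). HDAC1, the deacetylase of KDM1A complexes, ran from 408 to 1035 CPM (median 629) and from 642 to 1644 CPM (median 781), with a log2 fold change of 0.46 (FDR = 0.816 by the exact test), and RCOR2, a corepressor of these complexes, from 627 to 2211 CPM (median 998) and from 851 to 2298 CPM (median 1212), with 0.31. The ranges of the treatments overlapped in each of these genes.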

How the data were processed

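RNA of 16 pools of blastocysts (8 control, 8 methionine-rich) had been amplified in repeated linear rounds, and single-end reads were mapped by the authors with TopHat 2.0.4 to bosTau7. Transcript models were assembled with Cufflinks 2.0.2 and merged with the NCBI annotation, and the deposited values are raw counts per locus from htseq-count (mode intersection-nonempty, version and strand setting not given in the sources used here). Linear amplification of so little RNA can add spread between pools that counting error does not cover. Each of the 22552 table rows pairs a locus with a symbol. Loci listed under several symbols (182) were used once, and none of them was a member of the enzyme set.

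The 15 pools without C3.2 were fitted together with edgeR 4.0.16 (R 4.3.3): loci with a summed CPM of at least 15, TMM, common and tagwise dispersion, exact test, Benjamini-Hochberg FDR under 0.1 over all tested loci, as in the study's methods. The quasi-likelihood test of edgeR, DESeq2 1.42.0 (standard errors and 95% Wald intervals) and limma 3.58.1 (voom, cow as random effect) were run beside it. Apart from limma's, these tests take no account of pools sharing a cow. Single loci were also compared over the means of 4 and 4 cows by a two-sided exact permutation test (70 assignments), unadjusted and given for a few loci only. Floors of 3 counts cover counting error only. Depth was 5624126 to 7826542 counts per pool, and 1745048 in C3.2.

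The enzyme set, the role lists and the marker lists were chosen with earlier results of these data known. Values are given for the 10 members with the smallest p by the exact test, the 2 members of each role with the highest mean CPM, every member below the filter (highest count), and the 4 partner genes with the smallest p and the 2 with the highest mean CPM. UTY, SETD1B and EHMT2 were described further after their values were seen. Alternatives covered the test, the cow, C3.2, C2.1, normalization, the filter, the number of blastocysts and each cow left out.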

Additional observations from a re-analysis of the deposited data

Results flagged for a closer look

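Single pools that stood apart from the others of their treatment were looked for in 23 named loci, both class sums and their log2 ratio. Of 52 groups of pools, 16 held a pool whose gap to its nearest neighbour exceeded Dixon's 95% critical value, where chance flags about 1 in 20 groups if values are normally distributed, which was not tested for CPM. All 16 were the highest pool of their group.

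In the control treatment these were PRMT10 in C1.1 (9.10 CPM, next 3.91), SETD8 in C4.1 (259 CPM, next 130), SETDB1 in C4.2 (67.0 CPM, next 16.9), MLL3 in C1.2 (1489 CPM, next 697), SUV39H2 in C2.2 (3.10 CPM, next 0.404), PRMT7 in C2.1 (73.8 CPM, next 33.0), KDM1A in C4.2 (408 CPM, next 184), KDM1B in C1.1 (26 CPM, next 2.97) and the methyltransferase sum in C1.2 (2374 CPM, next 1603). In the methionine-rich treatment they were EHMT1 in M8.2 (51.4 CPM, next 24), SETD8 in M6.1 (213 CPM, next 83.3), SMYD4 in M7.1 (22.9 CPM, next 2.58), EZH1 in M5.2 (5.94 CPM, next 2.62), PRMT7 in M8.1 (92.6 CPM, next 40.9), KDM1B in M7.1 (14.2 CPM, next 4.63) and KDM5B in M6.1 (861 CPM, next 499). C4.2, C1.1 and C1.2 each held 2 of the control pools named, and M6.1 and M7.1 each held 2 of the methionine-rich ones.

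C3.2, which enters no comparison between treatments, lay above the other 15 pools in 6 loci. Its level was 138 CPM for MLL (4.30 times the highest of the 15), 53.3 CPM for EZH1 (8.98 times), 208 CPM for KDM4A (2.03 times), 316 CPM for EZH2 (2.14 times), 3914 CPM for MLL3 (2.63 times) and 7.45 CPM for KDM4B (1.52 times). Among the loci below the filter, SETDB2 was at 42.4 CPM in C3.2 against at most 3.03 CPM in the 15 pools. SETD1B, also below it, was at 7.45 CPM against at most 2.16 CPM.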

How the results depend on the processing

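In all 19 alternative fits 0 enzyme loci were called, and the smallest FDR of any of them was 0.152. The number of all loci called was 110 by the exact test and 69 by DESeq2. It was 0 by limma voom and 0 by the quasi-likelihood test, with or without the number of blastocysts as covariate. With the pools of a cow summed it was 99 of 9176 tested. It was 117 with RLE in place of TMM and 99 with pool totals only. With all 16 pools it was 356, without C2.1 64 and without the filter 55. With each cow left out it ran from 62 to 153, and where every pool had to hold 10 counts it was 0. Of 422 alternative values of the 23 named loci, 384 kept the direction. The 38 others belonged to 11 loci with no call, and the cause was not tested. With the blastocyst covariate the log2 fold change was -1.53 for EZH1, -0.15 for NSD1, 0.077 for SETD2, 0.13 for PRMT6, -0.076 for PRMT7, 0.12 for KDM1A, 0.26 for KDM5B and -0.27 for KDM2A. By voom it was -1.11 for EZH1, -0.056 for PRMT7 and 0.024 for KDM5B. With all 16 pools it was -3.25 for EZH1, 0.046 for PRMT6 and 0.065 for KDM5B. With the pools of a cow summed it was 0.066 for KDM5B and -0.00095 for KDM2A, and without C2.1 0.0066 and -0.051. Under that last filter it was -0.024 for PRMT7 and -0.011 for KDM2A.

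With each cow left out the log2 fold change ran from -1.24 to 0.27 for SETDB1, -0.057 to 0.52 for SETD1A, -0.35 to 0.44 for EZH1, -0.34 to 0.40 for NSD1, -0.70 to 0.0061 for SETD2, -0.52 to 0.15 for PRMT6, -0.48 to 0.48 for PRMT7, -0.32 to 0.27 for KDM1A, -2.42 to 1.30 for KDM1B, -0.31 to 0.28 for KDM5B and -0.26 to 0.17 for KDM2A. The difference in the methyltransferase sum ran from -269 to -71.1 CPM, in the demethylase sum from -106 to 47.9 CPM and in their log2 ratio from -0.25 to 0.02. With all 16 pools the difference in the methyltransferase sum was -584 CPM and in the log2 ratio -0.50. Cow means separated in 1 locus each without C2.1 (SUZ12), with TMM-normalized CPM (EHMT1) and without the filter (SETD1B). No paired analysis was possible because no cow received both diets. At this depth 15 loci stayed below the filter, 4 of them with 0 counts.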
